A study of Mus musculus with 12 samples.

Results

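Nuclear factor kappa B (NF-kB) was followed through 9 of its subunit and inhibitor genes in MLE12 cells given a short hairpin RNA (shRNA) that targets either NANCI or LL34, which are long noncoding RNAs. MLE12 is a mouse distal lung epithelial line, established from a tumour driven by the SV40 large T antigen under the promoter of the surfactant protein C gene. Members were the rows of the value table that the platform annotation pairs with exactly 1 symbol from a list of 10 gene names. Nfkb2, Rel, Rela, Relb, Nfkbia, Nfkbib, Nfkbie, Nfkbiz and Tnfaip3 each matched 1 probe set, out of 41345 probe sets and 22180 named genes in all, and Nfkb1 matched none and was not analysed here. The study held 4 groups of 3 microarrays: cells with NANCI shRNA, cells with the scrambled shRNA of that set, cells with LL34 shRNA, and cells with the scrambled shRNA of the LL34 set. Every group received its shRNA from a pLKO.1 lentivirus, given at 60% confluency with polybrene for 12 hours, and the cells were collected after 65 hours of subculture. All groups were grown in medium that held hydrocortisone, beta-estradiol, insulin, transferrin, selenium and serum. The comparisons ask how these genes stood in cells given each shRNA against cells given the scrambled shRNA of the same set.

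NF-kB is a family of dimers built from Rel-domain proteins, which rest in the cytoplasm while bound to inhibitors of the IkB family. When receptors for tumour necrosis factor, interleukin 1 or microbial products are engaged, the IkB kinase complex marks the inhibitors for destruction and the dimers enter the nucleus. Several genes of the system, Nfkbia and Tnfaip3 among them, are known to be switched on by NF-kB itself, which closes a negative feedback loop, and in lung epithelium the pathway drives chemokines and survival genes.

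The DNA before the start sites is shown here because several of these genes are classical NF-kB targets and because most of them moved together. RefSeq windows on GRCm38.p6, from 250 bases before to 50 bases after a start, were held for 7 of the 10 names (10 windows). Both strands were searched for the consensus kappa B motif of 10 bases, with overlapping matches kept. A match was present in 7 of the 10 windows and in at least 1 window of 5 of the 7 genes. Of 32851 such windows of the mouse table, 8.46% held a match. The 250 bases before the start are printed 5′ to 3′ in the direction of the gene, with matches in capitals, for the 5 genes with a match and for Nfkbib, whose level did not pass the threshold in either comparison.
Tnfaip3, chr10:19015411-19015660, minus strand: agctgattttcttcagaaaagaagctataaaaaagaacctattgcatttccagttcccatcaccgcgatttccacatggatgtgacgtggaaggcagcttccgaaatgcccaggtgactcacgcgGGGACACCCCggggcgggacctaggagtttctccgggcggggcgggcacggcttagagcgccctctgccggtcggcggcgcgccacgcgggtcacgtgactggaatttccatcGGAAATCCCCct
Nfkbia, chr12:55492648-55492897, minus strand: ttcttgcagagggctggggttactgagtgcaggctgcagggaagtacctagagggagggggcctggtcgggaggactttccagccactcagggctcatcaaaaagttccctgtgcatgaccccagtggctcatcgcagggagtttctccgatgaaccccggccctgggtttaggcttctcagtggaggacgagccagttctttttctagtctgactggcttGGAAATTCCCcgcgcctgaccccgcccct
Nfkb2, chr19:46304487-46304736, plus strand: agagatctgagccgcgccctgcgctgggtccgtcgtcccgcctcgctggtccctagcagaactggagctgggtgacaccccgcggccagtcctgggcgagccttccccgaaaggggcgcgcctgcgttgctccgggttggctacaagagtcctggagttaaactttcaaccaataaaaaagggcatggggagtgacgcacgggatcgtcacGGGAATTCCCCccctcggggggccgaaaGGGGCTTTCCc
Nfkbie, chr17:45555450-45555699, plus strand: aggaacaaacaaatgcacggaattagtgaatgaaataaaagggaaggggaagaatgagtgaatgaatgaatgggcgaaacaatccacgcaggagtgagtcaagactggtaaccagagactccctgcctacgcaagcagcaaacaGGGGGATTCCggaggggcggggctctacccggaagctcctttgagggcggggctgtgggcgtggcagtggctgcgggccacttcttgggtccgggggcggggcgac
Rel, chr11:23770970-23771219, minus strand: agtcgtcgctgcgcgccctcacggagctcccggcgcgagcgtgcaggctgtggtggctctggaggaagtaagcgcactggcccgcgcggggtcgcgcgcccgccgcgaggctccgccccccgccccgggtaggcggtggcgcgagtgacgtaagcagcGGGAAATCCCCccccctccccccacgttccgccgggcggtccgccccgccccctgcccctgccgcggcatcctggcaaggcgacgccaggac
Nfkbib, chr7:28766645-28766894, minus strand: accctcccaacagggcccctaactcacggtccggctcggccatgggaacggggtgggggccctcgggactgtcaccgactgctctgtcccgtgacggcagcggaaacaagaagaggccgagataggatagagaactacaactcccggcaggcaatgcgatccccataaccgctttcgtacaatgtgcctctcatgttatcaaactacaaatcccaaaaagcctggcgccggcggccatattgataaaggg
In Tnfaip3 the matches began 125 and 12 bases before the start, and in Nfkbia 29 bases before it. For Nfkb2 they began 39, 38 and 11 bases before the start, the first pair overlapping in a run of 11 letters. Matches at 92 and 91 bases before the start of Rel overlapped in the same way, and that of Nfkbie lay at 106. Matches that read on both strands were those at 39 in Nfkb2, 92 in Rel and 125 in Tnfaip3. The windows of Nfkbib and Rela held no match, as did the other window of Tnfaip3, and the other windows of Nfkb2, which overlap each other, share 1 match. The windows of a gene are thus not all separate stretches. Rela, without a match, was called in both comparisons, and Rel, with matches, only after LL34 knockdown. Whether matches go with the changes was not tested. A match is only a string of letters in this window, and binding was not measured.

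Values are log2 signals per probe set, so a step of 1 is a doubling, and each gene is compared only with itself. The 6 arrays of the NANCI set had medians of 6.84 to 6.88, and those of the LL34 set lay lower, at 6.54 to 6.61. The sets thus appear to have been normalized separately. The main tests were therefore made within a set, and levels across the sets are given as a description. An alternative fit against all 6 scrambled arrays mixes the sets. A call lost in that fit cannot be told apart from the offset between the sets. Replicates correlated with their own group at 0.988 or higher, the lowest being LL34 scrambled replicate 3. The labels call the replicates biological and leave unsaid whether each had its own infection. The p-values therefore cover only how far these particular arrays scatter, which may be technical. The NANCI shRNA left 13.3% of the signal of Sfta3-ps, listed as Nanci in the gene table, and 50.1% of Nkx2-1, and the corresponding shares in the LL34 set were 62.6% and 83.2%. LL34 itself was not analysed here, so its knockdown was not checked.

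Nfkb2, Rela, Relb, Nfkbia, Nfkbie, Nfkbiz and Tnfaip3 rose in cells given NANCI shRNA, by 0.25 to 1.27 on the log2 scale. In cells given LL34 shRNA, Nfkb2, Rel, Rela, Relb, Nfkbia, Nfkbie and Tnfaip3 fell, by 0.24 to 0.82. Thus 7 of 9 members rose after NANCI knockdown, where 10.3% of all probe sets rose, and 7 of 9 fell after LL34 knockdown, where 6.66% of all probe sets fell (limma across all probe sets, Benjamini-Hochberg adjusted p under 0.05). No member was called in the opposite direction: limma called 0 falls after NANCI and 0 rises after LL34 knockdown. Over all probe sets 9.6% fell and 9.7% rose in these comparisons, and with 9 members a count of 0 lies near those shares. The counts stayed at 0 at an unadjusted p under 0.05. The median change over the members was 0.27 after NANCI and −0.44 after LL34 knockdown, against 0.0101 and 0.0038 over all probe sets. Every member had a mean level at or above the median of all probe sets. The shares called among such brighter probe sets are not given here. Rising and falling both occurred for 6 members, Nfkb2, Rela, Relb, Nfkbia, Nfkbie and Tnfaip3, as they did for 1.73% of all probe sets. The comparisons share no arrays. Members and pathway lists were chosen with earlier results of these data known. The shares given here and for the lists below are therefore a description. In bulk RNA, a change in the share of cells with the transcript and a change in RNA per cell cannot be told apart.

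**Figure D1:**
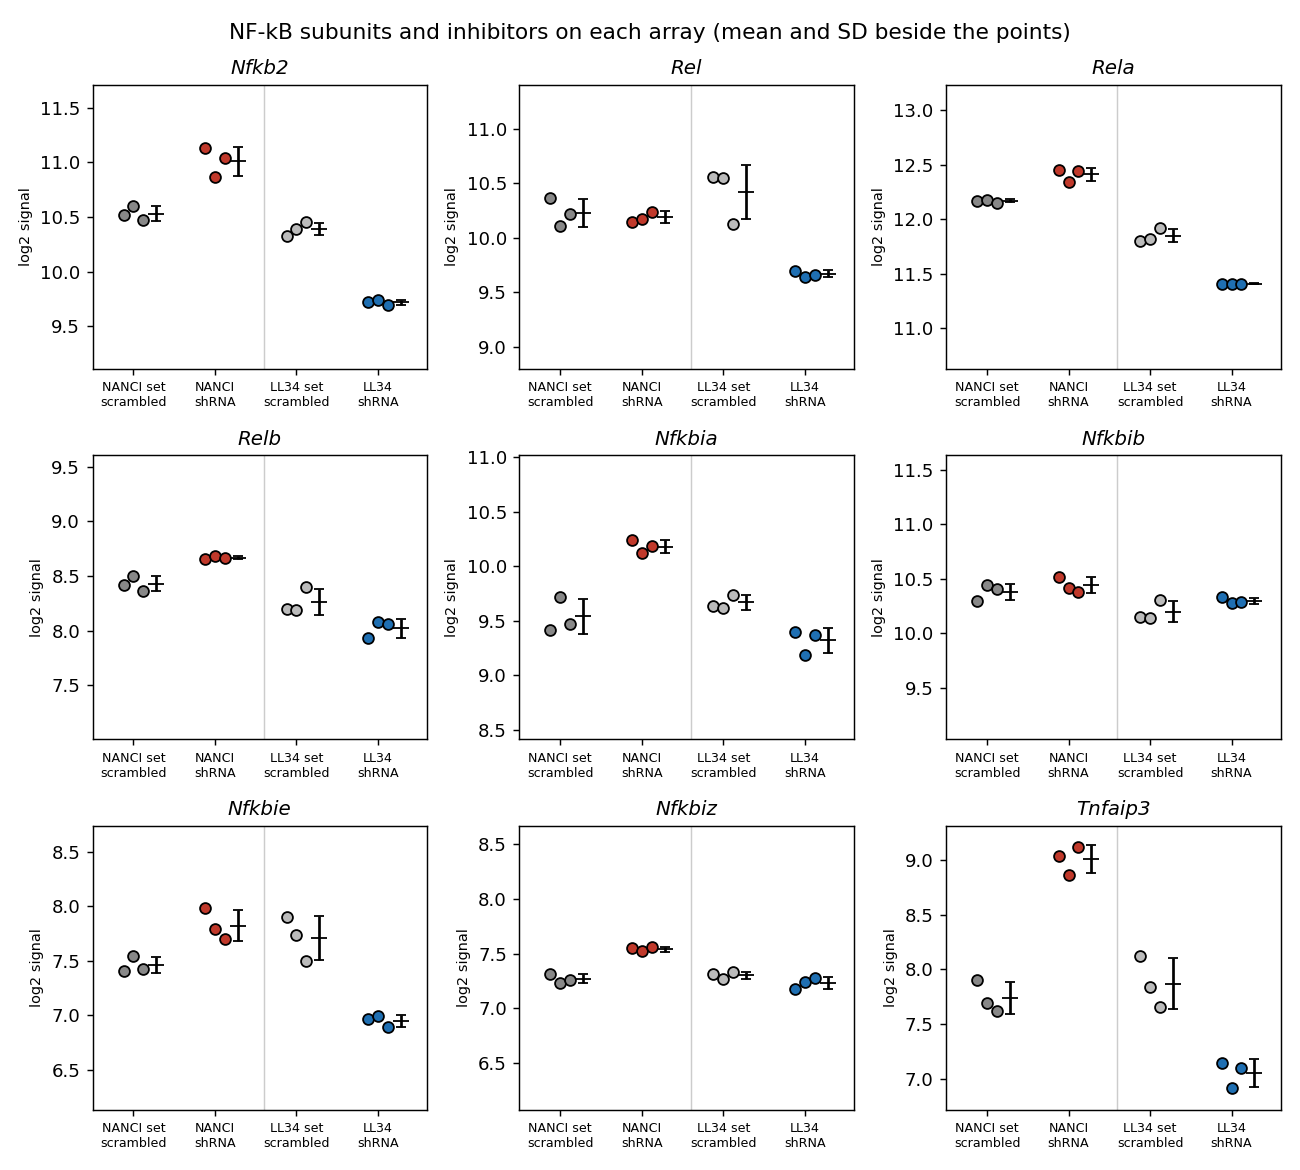
Log2 signal of the 9 genes on each of the 12 arrays, 1 panel per gene with the same span on every vertical axis; points are arrays, and the cross bar and whiskers beside them are the group mean and its SD (n = 3). The red NANCI shRNA points lie above their scrambled arrays in 7 panels and the blue LL34 shRNA points lie below theirs in 7, with the groups of Nfkbib overlapping in each set.

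Tnfaip3 encodes A20, a ubiquitin-editing enzyme that shuts off signalling above the IkB kinase, and its estimated change was the largest of the 9 in each comparison. On the NANCI scrambled arrays it read 7.90, 7.69 and 7.62, and on the NANCI shRNA arrays 9.04, 8.87 and 9.12. Every shRNA array was above every scrambled array. Tnfaip3 rose by 1.27 (SE 0.124, limma adjusted p = 2.84e-05), to 241% of the scrambled level. LL34 scrambled arrays gave 8.12, 7.84 and 7.66 and LL34 shRNA arrays 7.14, 6.91 and 7.10. Here every shRNA array lay below every scrambled array, and Tnfaip3 fell by 0.82 (SE 0.124, adjusted p = 0.000948) to 56.5%. The changes in the 2 sets differed by 2.10 (SE 0.175, adjusted p = 1.33e-05).

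Nfkbia encodes IkB alpha, the inhibitor that holds Rela dimers in the cytoplasm and is rapidly destroyed and remade on stimulation. Its signal was 9.42, 9.72 and 9.47 with scrambled shRNA and 10.24, 10.12 and 10.19 with NANCI shRNA. It rose by 0.64 (SE 0.0864, limma adjusted p = 0.000259), to 156%, with no overlap of the groups. In the LL34 set it was 9.64, 9.62 and 9.74 with scrambled shRNA and 9.40, 9.19 and 9.37 with LL34 shRNA. The shRNA arrays were again all lower, and Nfkbia fell by 0.35 (SE 0.0864, adjusted p = 0.0181) to 78.6%. That call was lost without LL34 shRNA replicate 2 (−0.28, adjusted p = 0.0747) or LL34 scrambled replicate 3 (−0.31, adjusted p = 0.0561), and against all 6 scrambled arrays (−0.28, adjusted p = 0.0642). The difference between the changes was 0.99 (SE 0.122, adjusted p = 0.000187). In the gene table Nfkbia lies on chromosome 12, as does Nkx2-1, with 5 protein-coding genes between them.

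Nfkbie encodes IkB epsilon, an inhibitor that binds Rel and Rela dimers. It read 7.41, 7.54 and 7.42 on NANCI scrambled arrays and 7.98, 7.79 and 7.70 on NANCI shRNA arrays, a rise of 0.36 (SE 0.102, limma adjusted p = 0.0262). The groups did not overlap, but the call depended on single arrays. It was lost without NANCI shRNA replicate 1 (0.29, adjusted p = 0.108) or 2 (0.38, 0.0557), or without NANCI scrambled replicate 1 (0.34, 0.0871) or 3 (0.35, 0.0813), and against all 6 scrambled arrays Nfkbie measured 0.24 (0.184). With LL34 shRNA the arrays gave 6.97, 6.99 and 6.89, below the scrambled arrays at 7.90, 7.74 and 7.50. Nfkbie fell there by 0.76 (SE 0.102, adjusted p = 0.000481), to 59.1%. Its changes in the 2 sets differed by 1.12 (SE 0.144, adjusted p = 0.000252).

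Of the inhibitors, only Nfkbiz and Nfkbib had no call after LL34 knockdown, and genes were not tested against each other. Nfkbiz encodes IkB zeta, a nuclear IkB protein that acts as a cofactor at selected NF-kB genes. It read 7.31, 7.23 and 7.26 with scrambled and 7.55, 7.52 and 7.56 with NANCI shRNA, groups that were narrow and apart, and rose by 0.27 (SE 0.0508, limma adjusted p = 0.00239). Its LL34 set arrays overlapped, at 7.31, 7.27 and 7.33 with scrambled and 7.18, 7.24 and 7.28 with LL34 shRNA, and the change was −0.07 (SE 0.0508, adjusted p = 0.466, 95% interval −0.18 to 0.04). The test of the difference gave 0.34 (SE 0.0718, adjusted p = 0.00594). Nfkbib, which encodes IkB beta, a slower-acting inhibitor, was the only one of the 9 without a call in any of the 3 tests. Its 12 arrays lay between 10.14 and 10.52, and the groups overlapped in each set. It measured 0.06 (adjusted p = 0.673, 95% interval −0.09 to 0.21) after NANCI and 0.10 (adjusted p = 0.388, interval −0.04 to 0.25) after LL34 knockdown.

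Of the 4 subunit genes, 3 rose after NANCI knockdown (10.3% of all probe sets) and 4 fell after LL34 knockdown (6.66%). Nfkb2 encodes p100, which is cut to the DNA-binding subunit p52 in the noncanonical pathway and otherwise acts as an inhibitor. It read 10.52, 10.60 and 10.47 on NANCI scrambled and 11.13, 10.87 and 11.04 on NANCI shRNA arrays. The groups did not overlap, and Nfkb2 rose by 0.48 (SE 0.0713, limma adjusted p = 0.000545). In the LL34 set the scrambled arrays gave 10.33, 10.39 and 10.45 and the shRNA arrays 9.72, 9.74 and 9.69. Every shRNA array lay below every scrambled array, and Nfkb2 fell by 0.67 (SE 0.0713, adjusted p = 0.000103), to 62.7%. The changes differed by 1.15 (SE 0.101, adjusted p = 1.86e-05). A noncoding gene whose span overlaps Nfkb2, 4833438C02Rik, had its own probe set, which rose by 0.80 and fell by 0.30 in the same comparisons (adjusted p = 4e-05 and 0.0273). Psd, a coding gene that also overlaps Nfkb2, measured −0.08 and −0.06 with no call. Ccer2, which overlaps Nfkbib, measured −0.11 and −0.07 with no call. Whether the probe sets of these genes share signal was not tested.

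Rela encodes p65, the subunit that activates transcription in the canonical dimer. Its NANCI scrambled arrays read 12.17, 12.18 and 12.15, and its NANCI shRNA arrays 12.45, 12.34 and 12.44. The rise of 0.25 (SE 0.0535, limma adjusted p = 0.00671) took Rela to 119% of the scrambled level, with no overlap. Scrambled arrays of the LL34 set read 11.80, 11.82 and 11.92, and all LL34 shRNA arrays 11.41. Rela fell there by 0.44 (SE 0.0535, adjusted p = 0.000265), to 73.8%. The SD of that shRNA group, 0.00125, came from a group in which 464 other probe sets had exactly equal values on all 3 arrays. The difference of the changes was 0.68 (SE 0.0757, adjusted p = 9.12e-05).

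Relb, the partner of p52 in the noncanonical dimer, gave calls that were the least stable of the 9. With scrambled shRNA of the NANCI set it read 8.42, 8.50 and 8.36, and with NANCI shRNA 8.66, 8.68 and 8.67. LL34 set arrays gave 8.20, 8.19 and 8.40 with scrambled and 7.93, 8.08 and 8.06 with LL34 shRNA. The groups were apart in each set, by a narrow margin in the LL34 set. Relb rose by 0.25 (SE 0.0718, limma adjusted p = 0.0328) and fell by 0.24 (SE 0.0718, adjusted p = 0.0428). Either call was lost without any 1 of several arrays: the rise without any NANCI shRNA array or NANCI scrambled replicate 1 or 3 (adjusted p up to 0.119), the fall in 9 of 12 such fits (up to 0.168 without LL34 shRNA replicate 1). The rise was also lost with quantile normalization over all arrays (0.0875) and the fall when only the LL34 set was fitted (0.131) or the variance prior had a trend (0.0519). The difference of the 2 changes held in each of these fits that can give one (the LL34 set alone cannot) and measured 0.49 (SE 0.102, adjusted p = 0.00578).

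Rel encodes c-Rel, an activating subunit best known from lymphocytes. It read 10.36, 10.11 and 10.22 with scrambled and 10.14, 10.17 and 10.24 with NANCI shRNA, overlapping groups with a change of −0.04 (SE 0.109, limma adjusted p = 0.870, 95% interval −0.29 to 0.20). In the LL34 set, scrambled replicates 1 and 2 read 10.56 and 10.55 and replicate 3 read 10.13, while LL34 shRNA arrays gave 9.70, 9.64 and 9.66. Even the low scrambled array stood above all shRNA arrays. Rel fell by 0.75 (SE 0.109, adjusted p = 0.000799), to 59.6%, and by 0.89 without scrambled replicate 3 (adjusted p = 3.96e-05). The changes differed by 0.70 (SE 0.154, adjusted p = 0.00768).

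**Figure D2:**
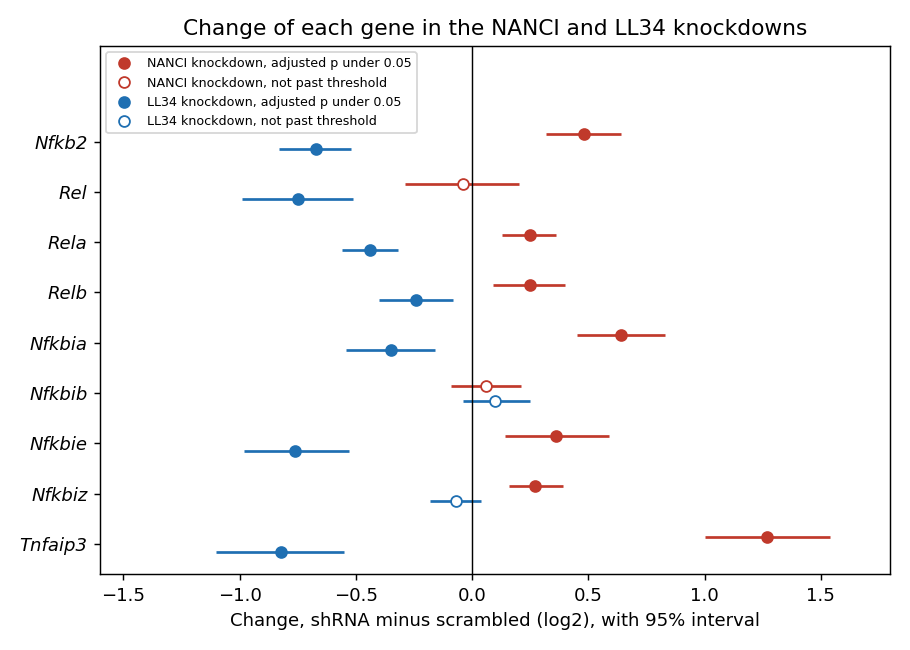
Change of each gene, shRNA minus scrambled, on the log2 scale, with the 95% interval of the limma fit; red is the NANCI and blue the LL34 knockdown, and open circles did not pass an adjusted p of 0.05. Filled red points run from 0.25 to 1.27 and filled blue points from −0.82 to −0.24, and the open points are Rel after NANCI, Nfkbiz after LL34 and Nfkbib in each.

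The changes in the 2 sets differed for 8 of 9 members, where 8.63% of all probe sets had a positive difference past the threshold, 10.2% a negative one and 18.8% one of either sign. All 8 differences were positive, from 0.34 for Nfkbiz to 2.10 for Tnfaip3. They kept their calls in each of the 20 alternatives run for the difference. Set side by side, shRNA arrays all lay above scrambled arrays for 7 of 9 members after NANCI knockdown, as in 17.5% of probe sets. After LL34 knockdown they all lay below for 7 of 9, as in 12.3%. These were the same members that had calls, so the counts add nothing separate to those calls. By role, 3 of 4 subunits and 4 of 5 inhibitors rose after NANCI knockdown (10.3% of all probe sets), and 4 of 4 subunits and 3 of 5 inhibitors fell after LL34 knockdown (6.66%). The median changes were 0.25 and 0.36 after NANCI and −0.56 and −0.35 after LL34 knockdown, and the roles were not tested against each other.

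Across the 4 groups on the deposited scale, the NANCI shRNA group had the highest mean for 8 of 9 members and the LL34 shRNA group the lowest for 8 of 9. The exceptions were Rel, highest with the LL34 set's scrambled shRNA (10.42 ± 0.247, SD, n = 3), and Nfkbib, lowest there (10.20 ± 0.0950). The scrambled groups lay between, and their arrays overlapped for 7 members. They did not overlap for Rela, at 12.17 ± 0.0111 and 11.85 ± 0.0627 in the NANCI and LL34 sets, or for Nfkb2, at 10.53 ± 0.0677 and 10.39 ± 0.0585. These orders set side by side levels of array sets that appear to have been normalized separately, and carry no test.

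Genes whose signal followed a member most closely over the 12 arrays, after the mean of each set was subtracted, were named as a description, since the points are 4 clusters of 3 arrays. Tnfaip3 was followed most closely by Cript (Pearson r = 0.989), Spin1 (0.987) and Kif20a (0.986). For Nfkb2 they were Tinagl1 (0.992), Pgd (0.988), an enzyme of the pentose phosphate pathway, and Rela itself (0.987). Rela was followed by Srxn1 (0.992), which encodes sulfiredoxin, Ikbkg (0.990) and Gpr180 (0.988). Nfkbia went with 1110038B12Rik (0.985), the kinase gene Src (0.979) and Klrg2 (0.976), and Nfkbie with Lgals1 (0.977), Acss2 (0.972) and Ifitm3 (0.971). The closest to Nfkbiz was Nup93 (0.980), to Rel the gelatinase gene Mmp2 (0.991) and to Relb Abi3 (0.962).

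Among the kinases and adaptors that lead to NF-kB, 9 of 25 measured genes rose and 2 fell after NANCI knockdown (36% and 8%, against 10.3% and 9.6% of all probe sets). After LL34 knockdown 3 rose and 4 fell (12% and 16%, against 9.7% and 6.66%). The list medians were 0.123 and 0.0418, and the share that fell after NANCI and the share that rose after LL34 knockdown lay near those of all probe sets. Ikbkg, which encodes NEMO, the regulatory subunit of the IkB kinase, read 8.72, 8.75 and 8.81 with scrambled and 9.44, 9.24 and 9.49 with NANCI shRNA. It rose by 0.63 (SE 0.0714, limma adjusted p = 7.6e-05). In the LL34 set it went from 9.31, 9.20 and 9.36 to 8.21, 8.26 and 8.25, a fall of 1.05 (SE 0.0714, adjusted p = 5.89e-06) to 48.3%. The groups were apart in each set, but the scrambled groups also stood apart, and against all 6 scrambled arrays Ikbkg measured 0.37 after NANCI knockdown (adjusted p = 0.131). The span of Ikbkg overlaps those of G6pdx and Fam3a in the gene table, so its signal is uncertain. The same doubt holds for Tab1, Ikbke, Tnfrsf12a, Il18, Bcl3 and N4bp1, whose spans overlap other genes too. Tab1, an adaptor of the kinase TAK1, went the other way, falling by 0.52 (adjusted p = 4.08e-05) and rising by 0.27 (adjusted p = 0.00504). Against all 6 scrambled arrays neither Tab1 call held (−0.32, adjusted p = 0.0809; 0.08, adjusted p = 0.635).

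Bcl10, an adaptor of the CARD complex, rose by 0.60 (limma adjusted p = 2.47e-05) after NANCI knockdown, and Sharpin, a subunit of the linear ubiquitin ligase, fell by 0.50 (adjusted p = 4.64e-05). After LL34 knockdown Ikbke, an IkB kinase relative, fell by 0.84 (adjusted p = 7.96e-05) and Irak2, a kinase-like adaptor of interleukin 1 and Toll-like receptors, rose by 0.59 (adjusted p = 0.000577). The count of 4 falls after LL34 knockdown dropped to 2 without any 1 of LL34 shRNA replicates 1, 2 and 3, LL34 scrambled replicates 1 and 2, NANCI shRNA replicate 2 or NANCI scrambled replicate 3.

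Of 14 measured receptors, 6 fell and 1 rose after NANCI knockdown (42.9% and 7.14%, against 9.6% and 10.3% of all probe sets), with a list median of −0.181. After LL34 knockdown 4 fell and 1 rose (28.6% and 7.14%, against 6.66% and 9.7%), with a median of −0.0218. Tnfrsf1b, the second receptor of tumour necrosis factor, read 10.23, 10.27 and 10.36 with scrambled and 9.43, 9.24 and 9.14 with NANCI shRNA, and 10.23, 10.20 and 10.17 with scrambled and 9.53, 9.43 and 9.41 with LL34 shRNA. It fell in both, by 1.02 (limma adjusted p = 4.55e-06) and 0.74 (adjusted p = 7.94e-05). Il18r1, an interleukin 18 receptor chain, fell by 1.16 (adjusted p = 3.11e-05) after NANCI knockdown. It also fell by 0.41 after LL34 knockdown (adjusted p = 0.0319). That second call was lost without any 1 of the LL34 shRNA arrays and with the LL34 set fitted alone (adjusted p = 0.105). Ager, a pattern receptor and alveolar type 1 marker, fell by 0.90 after NANCI knockdown (adjusted p = 6.19e-06). Against all 6 scrambled arrays the Ager change was −0.44 (adjusted p = 0.235). The 1 riser after NANCI knockdown was Tnfrsf12a, the receptor of TWEAK, which went from 10.68, 10.74 and 10.65 to 11.56, 11.57 and 11.57, by 0.88 (adjusted p = 7.34e-06). After LL34 knockdown the Toll-like receptor genes Tlr2 and Tlr3 fell by 0.57 (adjusted p = 0.000921) and 0.71 (adjusted p = 0.000794). Ltbr, the lymphotoxin beta receptor, rose by 0.37 after LL34 knockdown (adjusted p = 0.000588) and fell by 0.31 after NANCI knockdown (adjusted p = 0.00121). The count of 1 receptor that rose became 2 after NANCI knockdown without LL34 scrambled replicate 3 and 2 after LL34 knockdown without LL34 scrambled replicate 1. Against all 6 scrambled arrays neither Ltbr call held, at −0.15 after NANCI (adjusted p = 0.322) and 0.21 after LL34 knockdown (adjusted p = 0.181).

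Of 11 measured ligand genes, limma called 0 after NANCI knockdown (10.3% and 9.6% of all probe sets rose and fell; 0 ligands at an unadjusted p under 0.05), and 1, Il18, fell after LL34 knockdown by 0.54 (SE 0.117, adjusted p = 0.00918), with arrays at 5.51, 5.80 and 5.28 against 4.96 to 5.02 on the 3 shRNA arrays. Il18 lost its call against all 6 scrambled arrays (−0.34, adjusted p = 0.146). Among 13 other inhibitors, 2 rose and 1 fell after NANCI knockdown (15.4% and 7.69%), shares near the 10.3% and 9.6% of all probe sets. After LL34 knockdown 2 rose and 3 fell (15.4% and 23.1%, against 9.7% and 6.66%). Bcl3, a nuclear IkB protein, rose by 0.44 (limma adjusted p = 0.00257) and Tnip2, an A20-binding protein, by 0.45 (adjusted p = 0.0119) after NANCI knockdown. The Tnip2 call was lost without NANCI shRNA replicate 1 (0.38, adjusted p = 0.0549) or 3 (0.39, 0.0504), which left 1 gene that rose. Without NANCI shRNA replicate 1, Pdlim2 also fell (−0.31, 0.0375), which made 2. Tnip3, another A20-binding protein, fell in both comparisons, by 1.01 (adjusted p = 0.0027) and 1.2 (adjusted p = 0.0014), the second losing its call against all 6 scrambled arrays (−0.83, 0.0545). After LL34 knockdown Pdlim2, which targets Rela for degradation, fell by 0.82 (adjusted p = 0.000145) and Rnf11, a partner of A20, by 0.70 (adjusted p = 0.000125). N4bp1 rose by 0.21 (adjusted p = 0.032), a call lost without any 1 of LL34 shRNA replicates 1, 2 and 3 or LL34 scrambled replicates 2 and 3 (adjusted p from 0.0566 to 0.111). The count of 2 that rose after LL34 knockdown became 1 without LL34 scrambled replicate 2 and 0 in the other 4 of these fits by limma.

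**Figure D3:**
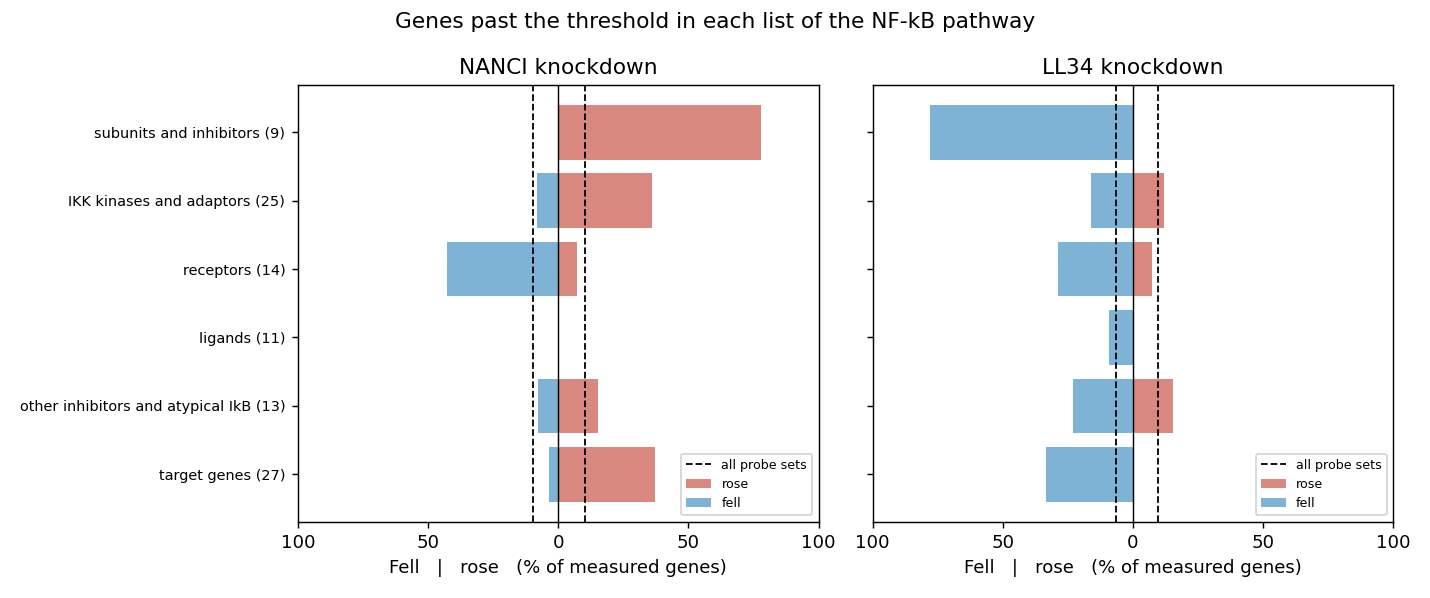
Share of the measured genes of each list that rose (red, right) or fell (blue, left) at a limma adjusted p under 0.05, with the number of genes in brackets; dashed lines mark the shares over all probe sets (10.3% and 9.6% after NANCI, 9.7% and 6.66% after LL34 knockdown). Of the 9 subunits and inhibitors, 7 stand on the right after NANCI and 7 on the left after LL34 knockdown, and the 27 target genes follow with 37% risen and 33.3% fallen.

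Among target genes of NF-kB, those past the threshold rose after NANCI knockdown, with 1 exception, and fell after LL34 knockdown. Of 27 measured, 10 rose and 1 fell after NANCI knockdown (37% and 3.7%, against 10.3% and 9.6% of all probe sets). After LL34 knockdown 9 fell (33.3%, against 6.66%) and limma called 0 rises (1 at an unadjusted p under 0.05), against 9.7% of all probe sets. The list medians were 0.0945 and −0.0855, and 14 genes passed in neither comparison. Ccl2, a chemokine that attracts monocytes, read 7.81, 7.83 and 7.47 with scrambled and 9.17, 9.13 and 9.34 with NANCI shRNA, a rise of 1.51 (SE 0.126, limma adjusted p = 9.83e-06) to 285%. It read 8.04, 7.72 and 7.71 with scrambled and 6.66, 6.89 and 6.57 with LL34 shRNA, a fall of 1.11 (SE 0.126, adjusted p = 0.000155) to 46.2%. In each set all shRNA arrays lay on 1 side.

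Plau, the urokinase-type plasminogen activator, rose from 8.60, 8.24 and 8.47 to 9.88, 9.83 and 9.74 with NANCI shRNA, by 1.38 (limma adjusted p = 1.49e-05). In the LL34 set Plau fell from 9.29, 9.29 and 8.87 to 7.83, 7.63 and 7.68, by 1.44 (adjusted p = 2.33e-05). Ier3, an early response gene that modulates survival, rose by 0.90 (adjusted p = 2.46e-05) and fell by 0.77 (adjusted p = 0.00015). Gadd45b, a stress gene that restrains JNK signalling, rose by 0.34 (adjusted p = 0.0107) and fell by 0.70 (adjusted p = 0.000164). Csf1, Cxcl1 and Bcl2l1, named after their values were seen, completed the 7 targets that rose in one comparison and fell in the other, at 0.56 and −0.50, 0.57 and −0.40, and 0.63 and −0.46. Of all probe sets, 1.73% rose after NANCI and fell after LL34 knockdown. Il15, a cytokine that sustains lymphocytes, rose after NANCI knockdown by 1.03 (adjusted p = 3.87e-05) and measured −0.04 after LL34 knockdown (adjusted p = 0.867). The 1 target that fell after NANCI knockdown was the chemokine gene Ccl5, named after its value was seen (−0.90, adjusted p = 0.000198). That count of 1 became 2 without NANCI scrambled replicate 2, LL34 shRNA replicate 2 or LL34 scrambled replicate 3.

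**Figure D4:**
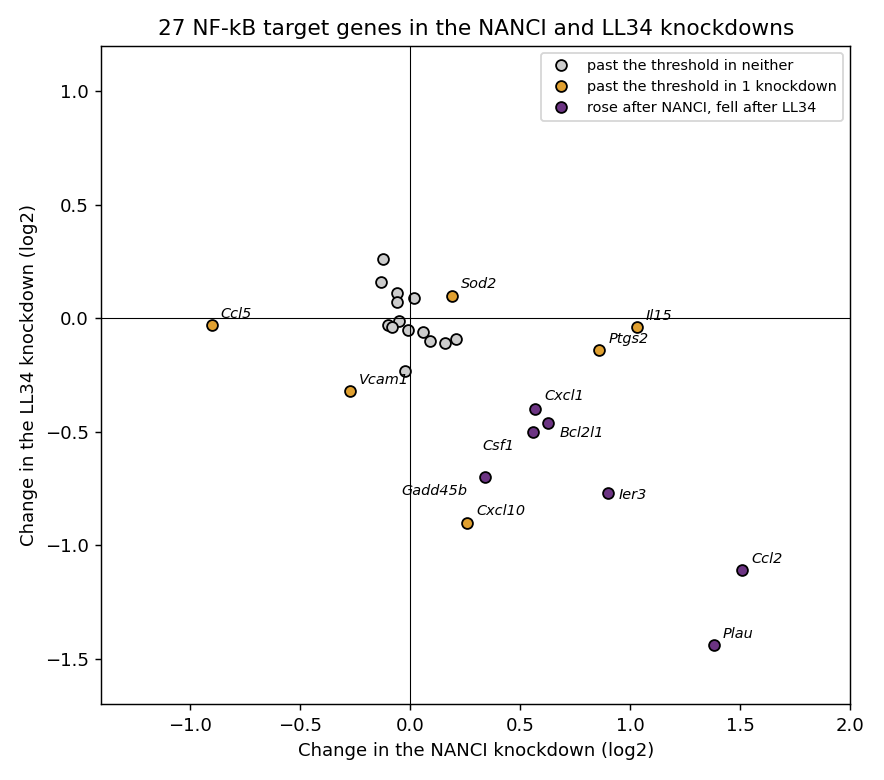
Change of each of 27 NF-kB target genes in the NANCI knockdown (horizontal, log2) and in the LL34 knockdown (vertical, log2). The 7 purple genes rose in the first and fell in the second, as 1.73% of all probe sets did. They were led by Ccl2 (1.51 and −1.11) and Plau (1.38 and −1.44), and the 14 grey genes passed the threshold in neither.

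The line's own markers and those of other cell types were read beside these results. Of the epithelial markers, Nkx2-1 lay between 10.04 and 11.18 and Sftpc, a surfactant gene, between 9.07 and 10.84 over the 12 arrays. Cdh1, Krt8, Sftpb and Abca3 also stayed at 8.78 or above. Epcam (6.12 to 6.8), Krt18 (6.36 to 6.96), Sftpa1 (5.86 to 6.5) and Lamp3 (4.82 to 5.85) read lower. The fibroblast marker Dcn, at 11.9 to 13.04, had a higher signal than every epithelial marker. Signals of different genes are not compared on a shared scale here, so these readings do not rank RNA amounts. Of 7 measured leukocyte markers, Cd14 and Cd68 rose after NANCI knockdown, by 1.73 (limma adjusted p = 2.42e-05) and 0.88 (adjusted p = 0.000145), and the summed linear signal of the list was 1330 to 1450 on NANCI shRNA arrays and 797 to 843 on their scrambled arrays. The sums were 671 to 704 on LL34 shRNA and 750 to 844 on LL34 scrambled arrays, with the shRNA sums above the scrambled sums in the first set and below them in the second. Linear sums weigh the brightest markers most, here Cd68 (8.23 to 9.44) and Cd14 (6.54 to 8.79), and the other leukocyte markers had no call. Ptprc, the pan-leukocyte gene that encodes CD45, stayed between 4.97 and 5.55 on all 12 arrays and Adgre1, a macrophage marker, between 5.16 and 5.59, with no call in either comparison. The files give no detection call, and the part of these markers in the result was not tested. Of 10 epithelial markers, 4 fell after NANCI knockdown (9.6% of all probe sets): Cdh1, Krt8, Nkx2-1 and Abca3. After LL34 knockdown 3 fell, Krt8, Nkx2-1 and Sftpc, and 2 rose, Epcam and Sftpb (6.66% and 9.7% of all probe sets). The summed signal of the epithelial list was 5230 to 5850 with NANCI shRNA and 9440 to 10400 with its scrambled shRNA, and 7270 to 7730 and 8350 to 10100 in the LL34 set. Among 4 endothelial and 5 fibroblast markers, Tek fell in both comparisons (−1.05 and −1.26) and Dcn after NANCI knockdown (−0.91). Endothelial sums were 394 to 417 against 523 to 543 and 290 to 299 against 398 to 495, and fibroblast sums 4450 to 4860 against 7710 to 8980 and 7720 to 8300 against 7480 to 7820, shRNA against scrambled, in the NANCI and LL34 sets. The fibroblast sums were mostly Dcn, at 11.9 or above, since no other marker of that list exceeded 8.51 (Col1a1) or had a call. The part of these lists in the result was not tested either.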

How the data were processed

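RNA from 12 cultures was hybridised to Affymetrix arrays, 3 per group in 4 groups. The authors deposited log2 signals per probe set; oligo, RMA and limma are named in the submitters' processing notes, with no versions, and the build is not given in the sources used here. Of 41345 probe sets, the platform annotation gives 23521 exactly 1 symbol, 1814 several and 16010 none. From these values, limma 3.58.1 in R 4.3.3 fitted 4 group means to all 12 arrays (8 residual and 2.84 prior degrees of freedom), with Benjamini-Hochberg adjustment over all probe sets and a threshold of 0.05. The design was tested on simulated data.

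A rose or fell call is a limma adjusted p under 0.05, and percentages of scrambled are 2 to the power of the log2 change. The brightest probe set stood for a gene with several. All members were named; in each pathway list, up to 4 genes past the threshold with the smallest p per knockdown were named, and up to 3 genes most correlated with each called member. The members and lists were chosen with earlier results of these data known. Depth has no meaning for arrays, and 3 arrays per group limit the precision. Alternatives covered normalization, samples in the fit, replicate block, control group, array weights, variance prior, dim probe sets, probe sets per gene and each array left out. Promoters and start sites come from RefSeq on GRCm38.p6.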

Additional observations from a re-analysis of the deposited data

Results flagged for a closer look

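For 8 members the change after NANCI knockdown differed from the change after LL34 knockdown by limma's test of the difference, which compares groups that share no arrays. The differences on the log2 scale were 2.10 for Tnfaip3, 1.15 for Nfkb2, 1.12 for Nfkbie, 0.99 for Nfkbia, 0.70 for Rel, 0.68 for Rela, 0.49 for Relb and 0.34 for Nfkbiz. For Tnfaip3, Nfkb2, Nfkbie, Nfkbia, Rela and Relb the changes had opposite signs and each passed the threshold. Rel had a call only after LL34 and Nfkbiz only after NANCI knockdown.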

How the results depend on the processing

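Of 558 values for the 27 member results over 21 settings, 528 kept direction and call, 28 lost the call and 2 turned sign. Members called numbered 6 to 7 after NANCI, 5 to 7 after LL34 knockdown and 8 for the difference over the other settings, and 5 to 7, 5 to 7 and 8 with each array left out. Same-numbered replicates did not deviate together (r from −0.0568 to 0.0123 in the NANCI and −0.125 to 0.0451 in the LL34 set). The replicate block gave 6, 5 and 8, without Relb after NANCI (adjusted p = 0.0587) and without Relb (0.0736) and Nfkbia (0.0552) after LL34 knockdown, by limma. Signs turned for Rel after NANCI (left-out range −0.11 to 0.02) and Il15 after LL34 knockdown (−0.11 to 0.03). With all 6 scrambled arrays as 1 control, signs turned for Il18 (−0.01) and Pdlim2 (0.05) after NANCI knockdown and, in the difference, for Nfkbib (0.14), Ager (0.09), Tnip3 (−0.56) and N4bp1 (0.18). The cause was not tested. That setting moved the median of all probe sets to 0.131, −0.106 and 0.227 in the 3 comparisons. Some small list counts moved by over 1.5 times. After NANCI knockdown, 4 adaptors in place of 2 fell among the brighter probe sets, 2 receptors in place of 1 rose there and with array weights or the block, and 2 targets in place of 1 fell there and with quantile normalization, array weights or a variance trend. After LL34 knockdown, 2 adaptors in place of 4 fell and 0 other inhibitors in place of 2 rose with the block or the set fitted alone, the second also after centring on array medians, by limma. Against all 6 scrambled arrays 1 adaptor in place of 3 rose, and 0 in place of 1 receptor rose and 0 in place of 1 ligand fell, the last also among the brighter probe sets, by limma. A fit of 1 set alone is not defined for the difference. Signal over background could not be judged, since no detection call was used here.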
